A study of Mus musculus with 8 samples.

Results

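The globin genes and 2 regulators of the switch from embryonic to adult globin, Bcl11a and Myb, were followed across 8 RNA sequencing libraries of mouse bone marrow. The members were taken by symbol from a table of 23337 genes: 8 globin symbols (Beta-s, Hba-a1, Hba-a2, Hba-x, Hbb-b1, Hbb-b2, Hbb-bh1 and Hbb-y) and the 2 regulators, 10 genes in all. The mice were C57BL/6, 4 months old, and every group carried JAK2V617F/+, an activating change in 1 allele of the kinase gene Jak2 that drives red cell overproduction. The groups differed in their label, JAK2V617F/+ Plek2+/+ or JAK2V617F/+ Plek2-/-, and in the cells: TER119-positive marrow cells, which are erythroblasts, the nucleated precursors of red cells, or Kit-positive cells of the lineage-negative marrow, called progenitors here. Each of the 4 groups held 2 libraries, and the labels do not say whether these came from separate mice, so p-values measure the spread between these samples only. No group without JAK2V617F/+ was part of the comparisons, and the origin of the Plek2-/- allele is not given in the sources used here.

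Hemoglobin is built from alpha-like and beta-like globin chains around heme, and its genes lie in an alpha-like cluster on chromosome 11 and a beta-like cluster on chromosome 7 of the mouse. Hba-x (zeta), Hbb-y (epsilon y) and Hbb-bh1 (beta h1) serve the first red cells of the embryo, and the adult genes take over in fetal liver and marrow. BCL11A is a zinc finger repressor that silences the embryonic beta-like genes in adult cells together with the NuRD complex, and MYB is a transcription factor of cycling progenitors whose loss raises embryonic and fetal globin.

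Library totals ran from 16038035 to 23521726 counts. Levels are given as CPM, counts per 1000000 counts, on totals scaled by TMM, and the upper limit for a gene without reads, taken as 3 reads, lies at 0.0983 to 0.235 CPM, which covers counting error only. The erythroid markers and the stem and progenitor markers followed the sort. The 11 erythroid markers summed to between 41603 and 45300 CPM in erythroblasts and between 1030 and 1106 CPM in progenitors. The 10 stem and progenitor markers summed to between 86.1 and 117 CPM against between 552 and 624 CPM. Neutrophil markers (9 genes, none at 0 in any library) moved with the Plek2 label. In erythroblasts they went from 18619 and 21481 CPM to 14426 and 13078 CPM. In progenitors they went from 6914 and 4085 CPM to 17758 and 23986 CPM. In every progenitor library the neutrophil sum exceeded that of the stem and progenitor markers, although the cells were sorted as lineage-negative. Plek2 itself had 1770 and 1894 reads in erythroblasts labelled Plek2+/+ and 616 and 781 in those labelled Plek2-/-, but 29 and 21 against 130 and 173 in progenitors, which goes against the label. Xist, the RNA of the inactive X chromosome in females, had at least 37172 reads in each library labelled Plek2+/+ and at most 65 in each labelled Plek2-/-, so sex and the Plek2 label cannot be told apart in any genotype comparison below.

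Adult beta globin dominated the erythroblast libraries. It is listed as Beta-s, which RefSeq gives as a synonym of Hbb-bs, 1 of the paired adult beta genes of this mouse haplotype (chromosome 7, 103826534 to 103828096, minus strand, GRCm38). Erythroblasts labelled Plek2+/+ held 1270641 and 1225145 Beta-s reads, or 77775 and 83157 CPM. Erythroblasts labelled Plek2-/- held 875798 and 889304 reads, or 68529 and 60457 CPM. Progenitors held 1074 and 1353 reads under the Plek2+/+ label and 1415 and 3872 under the Plek2-/- label. The erythroblast libraries thus lie far above all 4 progenitor libraries, and 1 progenitor library stands apart from the other 3. Between the populations Beta-s rose 1677-fold under the Plek2+/+ label (log2 10.71, SE 0.42, edgeR adjusted p = 9.45e-11) and 708-fold under the Plek2-/- label (log2 9.47, SE 0.40, edgeR adjusted p = 1.95e-10). The second was log2 10.19 without progenitor Plek2-/- replicate 2 and 8.99 without replicate 1. In sorted bulk samples, fewer cells of a type and less RNA per cell cannot be told apart.

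The adult alpha genes were not countable here, although the erythroblasts make hemoglobin. Hba-a1 (chromosome 11, 32283511 to 32284465, plus strand) is listed at 0 in 8 of 8 libraries. Hba-a2 (chromosome 11, 32296489 to 32297298, plus strand) had 1 and 2 reads in erythroblasts labelled Plek2+/+, 2 and 4 in those labelled Plek2-/-, and 0 in progenitors. These values lie at or near the limit of 3 reads beside at least 875798 Beta-s reads in each erythroblast library, so they are read as not countable and not as silent genes. The coding sequences of the pair are nearly the same, with 425 of 426 bases identical, and the stretch around the single difference (C381T, counted from 1 at the A of the start codon, Hba-a1 base first) is shown with that base in capitals, from GENCODE vM21.
Hba-a1: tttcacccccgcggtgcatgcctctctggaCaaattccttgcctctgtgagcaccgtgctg
Hba-a2: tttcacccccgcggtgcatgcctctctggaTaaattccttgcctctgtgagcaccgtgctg
Of all 50-base windows of the Hba-a1 messenger RNA 67.5% also occur in another gene, and of those of Hba-a2 86.9%, which leaves 211 and 66 windows that are their own. Whether reads shared between copies were dropped in counting was not tested, and neither the read length nor the setting for such reads is given in the sources used here.

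Beta-s has a near copy of the same kind. Hbb-bt, the other adult gene of the pair, shares 440 of 441 coding bases with Hbb-bs, and they differ at C417T (Hbb-bs base first), again in capitals.
Hbb-bs: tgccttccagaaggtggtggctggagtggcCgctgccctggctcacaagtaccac
Hbb-bt: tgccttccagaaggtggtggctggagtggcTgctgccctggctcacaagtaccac
Hbb-bt was not found among the genes counted, by its symbol or by a single RefSeq synonym, so it could not be analysed. Of the 50-base windows of Hbb-bs 65.8% also occur in Hbb-bt and 198 are its own, so the Beta-s counts may hold only part of the adult beta globin reads or reads of both genes, which was not tested. Hbb-b1 and Hbb-b2 are the names of the adult pair in another mouse haplotype, and neither is placed on a GRCm38 chromosome by GENCODE vM21. Hbb-b1 had 0 reads in every library and Hbb-b2 a single read, in 1 erythroblast library labelled Plek2+/+.

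Embryonic beta-like globin was present in trace amounts in erythroblasts and not detected in progenitors. Hbb-y (chromosome 7, 103851749 to 103853216, minus strand) had 21 and 23 reads in erythroblasts labelled Plek2+/+ and 17 and 23 in those labelled Plek2-/-. Hbb-bh1 (chromosome 7, 103841637 to 103843164, minus strand) had 8 and 9 reads against 13 and 13. Hba-x, the embryonic alpha-like gene (chromosome 11, 32276400 to 32278116, plus strand), had 2 and 4 reads against 5 and 4. All 3 genes had 0 reads in the 4 progenitor libraries. With 3 reads allowed over the progenitor group, Hbb-y was 24.1-fold higher in erythroblasts under the Plek2+/+ label and 27.3-fold higher under the Plek2-/- label. For Hbb-bh1 the values were 9.29-fold and 17.7-fold higher. The counting error of the erythroblast reads is left out, so these are not strict lower bounds. Hba-x did not pass the filter on low counts.

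The embryonic genes have no near copy. No 50-base window of the messenger RNAs of Hbb-y, Hbb-bh1 or Hba-x occurs in another gene. The first 90 coding bases of Hbb-y and Hbb-bh1 are shown to let the difference be seen, with the 30 bases that differ in capitals; over their whole coding sequences the pair is 76.4% identical.
Hbb-y: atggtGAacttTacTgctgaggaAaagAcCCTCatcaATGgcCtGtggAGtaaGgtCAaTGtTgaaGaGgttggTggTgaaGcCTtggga
Hbb-bh1: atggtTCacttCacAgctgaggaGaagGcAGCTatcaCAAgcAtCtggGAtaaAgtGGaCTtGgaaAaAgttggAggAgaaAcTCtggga
Per 1000000 beta-like reads, the sum of Hbb-y and Hbb-bh1 was 22.8 and 26.1 in erythroblasts labelled Plek2+/+ and 34.3 and 40.5 in those labelled Plek2-/-. In progenitors the 0 reads allow up to between 775 and 2793 per 1000000 beta-like reads, far above the erythroblast values, so the share of embryonic chains in progenitors was not measurable at this depth.

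**Figure D1:**
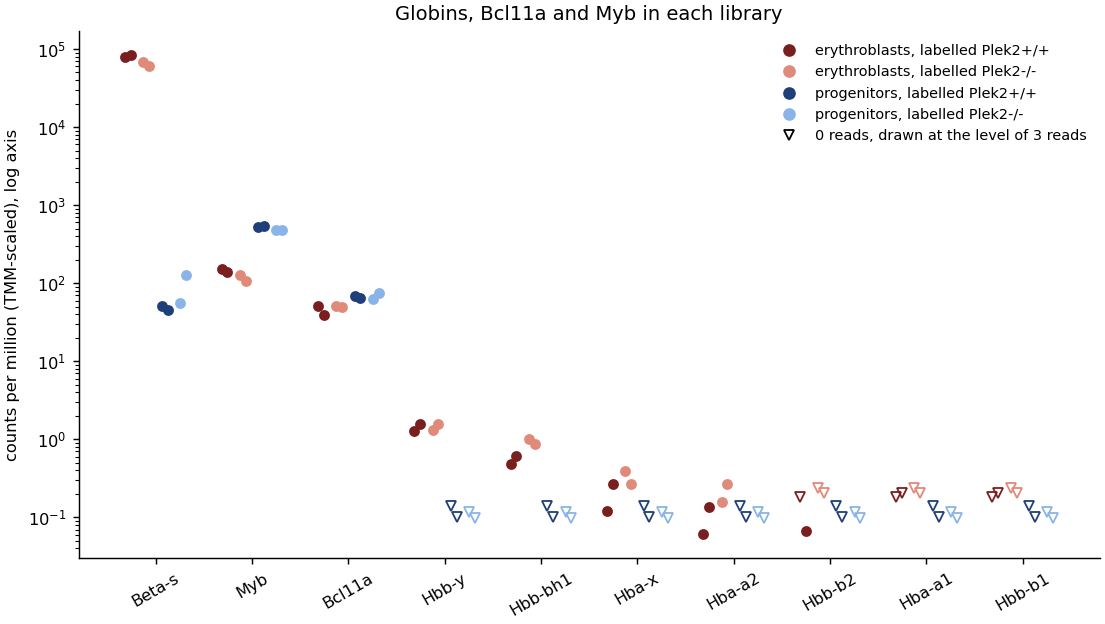
Level of each of the 10 members in each of the 8 libraries, in CPM on a log axis; filled points are libraries with reads, open triangles are libraries with 0 reads drawn at the level of 3 reads. Beta-s lies between 60457 and 83157 CPM in erythroblasts and between 45.6 and 127 CPM in progenitors, Myb and Bcl11a are higher in progenitors, and the other globins lie near the limit of detection.

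Bcl11a and Myb ran opposite to the globins. Bcl11a (chromosome 11, 24078056 to 24174123, plus strand) had 827 and 581 reads in erythroblasts labelled Plek2+/+, or 50.6 and 39.4 CPM, and 1463 and 1929 reads in the matching progenitors, or 68.7 and 65.0 CPM. Under the Plek2-/- label it had 645 and 731 reads in erythroblasts, or 50.5 and 49.7 CPM, and 1607 and 2301 in progenitors, or 62.6 and 75.4 CPM. The erythroblast libraries lie below the progenitor libraries without overlap, but by little. Bcl11a fell 1.48-fold (log2 -0.57, SE 0.12, edgeR adjusted p = 0.000789) and 1.38-fold (log2 -0.46, SE 0.12, edgeR adjusted p = 0.00312) from progenitors to erythroblasts under the Plek2+/+ and Plek2-/- labels. Without erythroblast Plek2+/+ replicate 2 the first was -0.35 (edgeR adjusted p = 0.0271).

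Myb (chromosome 10, 21124935 to 21160984, minus strand) fell further. It had 11291 and 16226 reads in progenitors labelled Plek2+/+, or 530 and 547 CPM, and 2448 and 2061 in erythroblasts, or 149.8 and 139.9 CPM. Under the Plek2-/- label the values were 474 and 478 CPM in progenitors and 127.7 and 106.3 CPM in erythroblasts. Every erythroblast library lies well below every progenitor library. The fold was 3.72 (log2 -1.89, SE 0.09, edgeR adjusted p = 9.17e-10) under the Plek2+/+ label and 4.07 (log2 -2.03, SE 0.09, edgeR adjusted p = 4.97e-10) under the Plek2-/- label.

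Of the 5 members that passed the filter on low counts, Beta-s was called higher and Bcl11a and Myb lower in erythroblasts under either label. Hbb-y and Hbb-bh1 were called higher too, but they passed the filter only through the erythroblasts, so their calls are given as a description and support nothing. Among all 13365 genes tested, 73.8% were called under the Plek2+/+ label (36% higher, 37.8% lower) and 76.7% under the Plek2-/- label (37.5% higher, 39.2% lower), so a call by itself is common in this contrast. Scaled to library totals without TMM, the median log2 fold change of all genes moved from -0.06 to -0.87 (Plek2+/+) and from -0.07 to -0.86 (Plek2-/-), and the share of calls that were higher from 48.8% to 18.7% and from 48.9% to 20.5%. Relative to that median, Beta-s stood at 10.77, Bcl11a at -0.51 and Myb at -1.84 under the Plek2+/+ label with either scaling.

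Per kilobase of exon, on the CPM scale, Beta-s and Myb stood above Bcl11a in both populations, but the distance between Beta-s and Myb differed. In erythroblasts labelled Plek2+/+, Beta-s was highest at 104774 ± 4956 (SD, n = 2), followed by Myb at 16.2 ± 0.788, Bcl11a at 3.42 ± 0.60, Hbb-y at 2.25 ± 0.308 and Hbb-bh1 at 0.898 ± 0.140 (SD, n = 2 each), and each step exceeded the spread of its neighbours. Hba-x came last at 0.210 ± 0.112 (SD, n = 2), on 2 and 4 reads. Hba-a2 was not countable, so it has no place in this order. In progenitors labelled Plek2+/+, Beta-s at 62.5 ± 4.43 and Myb at 60.3 ± 1.34 per kilobase did not differ beyond their spread, and Bcl11a stood at 5.08 ± 0.196 (SD, n = 2 each). Without the length, Myb lies above Beta-s in these progenitors, at 539 against 48.0 CPM. Exon lengths cover all annotated transcripts, 8933 bases for Myb and 768 for Beta-s, so this order depends on the gene models. Under the Plek2-/- label the same order held in erythroblasts. In progenitors Beta-s at 118 ± 66.0 and Myb at 53.3 ± 0.283 did not differ beyond their spread (SD, n = 2 each). The Beta-s libraries, at 71.7 and 165, lay above the Myb libraries, at 53.1 and 53.5.

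The theta globins, which are no members, gave a countable alpha-like signal. Hbq1b (chromosome 11, 32286965 to 32287784) had 1690 and 1727 reads in erythroblasts labelled Plek2+/+, 1351 and 1653 in those labelled Plek2-/-, and between 2 and 7 in progenitors. Hbq1a had 578 and 442 against 541 and 568 reads, with 0 or 1 in progenitors. Per 1000 Beta-s reads, Hbq1b had between 1.33 and 1.86 reads in the 4 erythroblast libraries. In the progenitor library with the most Beta-s reads (3872) it had 0.517 (95% exact binomial interval 0.0625 to 1.87), and in the other 3 between 1.48 and 6.52 with intervals that reach from 0.179 to 13.5.

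The genes around globin expression were read by list, the Plek2+/+ label first. Of 28 activators of globin genes, 18 were called higher and 4 lower in erythroblasts (median log2 fold change 0.76; all genes -0.06). Klf1, the factor that turns on adult beta globin, rose from 52.8 and 50.8 CPM in progenitors to 622 and 756 CPM in erythroblasts (13.3-fold, edgeR adjusted p = 4.85e-12), and Gata1, the master erythroid factor, from 37.6 and 38.7 to 263 and 280 CPM (7.10-fold, edgeR adjusted p = 1.08e-11). Under the Plek2-/- label 17 were higher and 3 lower. On library totals the split was 11 higher and 13 lower, so the balance of this list rests on the scaling, while the direction of both named genes does not.

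Repressors of embryonic globin were split. Of 23 tested, 12 were higher and 9 lower in erythroblasts (median 0.20), and 12 and 7 under the Plek2-/- label; on library totals the Plek2+/+ split was 4 higher and 17 lower. Sox6, which acts beside BCL11A on the embryonic beta-like genes, rose from 6.10 and 6.20 CPM to 880 and 921 CPM (146-fold, edgeR adjusted p = 5.47e-13), while Bcl11a itself fell. Klf3, a repressor related to KLF1, rose 7.10-fold (edgeR adjusted p = 2.99e-11). Of 14 NuRD complex genes, 4 were higher and 4 lower (median 0.03), and 1 higher and 11 lower on library totals; Mta3 rose 2.07-fold (edgeR adjusted p = 9.72e-08) and the histone chaperone subunit Rbbp4 1.78-fold (edgeR adjusted p = 7.80e-07) with TMM, while on library totals Rbbp4 was not called (log2 0.01, edgeR adjusted p = 0.888).

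Genes that guard globin synthesis were mostly higher in erythroblasts. Of 16 genes of the heme-regulated kinase pathway and globin translation, 13 were higher and 3 lower (median 1.19), and 9 and 5 on library totals. Trib3, a pseudokinase induced by ATF4, rose from 1.41 and 1.45 CPM to 490 and 355 CPM (294-fold, edgeR adjusted p = 4.89e-12), and the asparagine synthetase gene Asns rose 9.22-fold (edgeR adjusted p = 1.45e-12). Of 10 genes for the handling and clearance of globin chains, 8 were higher and 0 lower (median 2.41), and 7 and 3 on library totals. Ube2o, the ubiquitin ligase that removes unpaired alpha globin, rose from 28.3 and 26.4 CPM to 1651 and 1598 CPM (59.5-fold, edgeR adjusted p = 3.02e-13), and Ube2l6 rose 107-fold (edgeR adjusted p = 2.81e-13).

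Lists tied to progenitors and to the fetal program leaned the other way. Of 21 partners and targets of MYB, 13 were lower and 5 higher in erythroblasts (median -0.93). On library totals 16 were lower and 4 higher, a balance of calls near that of all 13365 genes (9171 lower, 2111 higher). The list median was then -1.74, beside -0.87 for all genes. Cd34, a surface marker of progenitors, fell 10.1-fold (edgeR adjusted p = 1.83e-11) and the cytokine receptor Flt3 9.47-fold (edgeR adjusted p = 1.57e-10). Both are also among the stem and progenitor markers used above, and Kit, on which the progenitors were sorted, is on the MYB list too. The lean of this list is therefore not independent of the sort. Of 7 tested genes of the heterochronic fetal program, 5 were lower and 2 higher (median -1.40). Hmga2, a chromatin protein of fetal stem cells, fell 11.6-fold (edgeR adjusted p = 4.10e-05) from low levels of 2.30 and 2.29 CPM. Lin28a, an RNA-binding protein that blocks let-7, rose 2.19-fold under the Plek2+/+ label (edgeR adjusted p = 2.10e-05) but fell 1.93-fold under the Plek2-/- label (edgeR adjusted p = 8.62e-05); on library totals the first was not called (log2 0.32, edgeR adjusted p = 0.0762).

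Markers of other cells also separated the populations: 9 of 9 neutrophil markers were called higher in erythroblasts under the Plek2+/+ label and 9 of 9 lower under the Plek2-/- label, and 8 of 9 monocyte and macrophage markers were higher under either; their part in the list counts was not tested.

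Genes listed as neighbours of the members were called about as often as all genes (73.8%). The alpha cluster list was not checked against mouse positions, so some of its genes may lie elsewhere. Of 8 genes on it 4 were higher and 2 lower, and 3 and 3 on library totals. Among them was Nprl3, whose introns hold the alpha globin enhancers, at 98.7 and 105 CPM in erythroblasts against 19.8 and 18.6 CPM in progenitors (5.33-fold, edgeR adjusted p = 4.39e-11). Of 6 tested genes beside Myb and Bcl11a 3 were higher and 2 lower, and 1 and 4 on library totals. Ahi1, next to Myb, rose 6.45-fold (edgeR adjusted p = 3.17e-11) while Myb fell, and Rel, near Bcl11a, fell 3.49-fold (edgeR adjusted p = 4.97e-07).

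**Figure D2:**
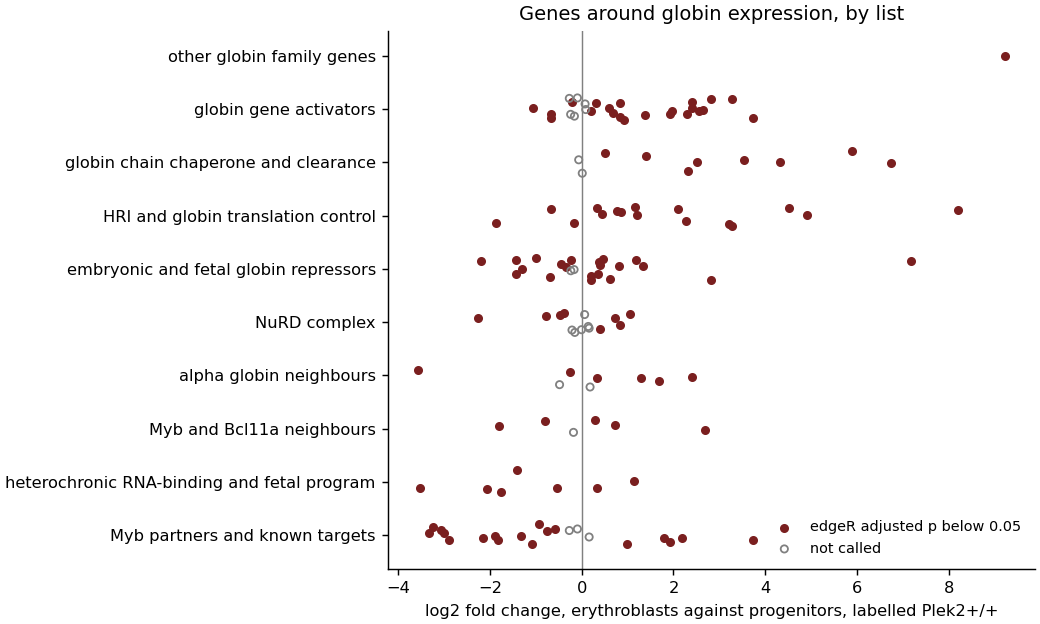
Log2 fold change of each listed gene between erythroblasts and progenitors labelled Plek2+/+, with filled points for genes called by edgeR and open points for the rest; genes with 0 reads in a group are left out. Activators and chain-handling genes lie mainly right of 0 and MYB partners and targets mainly left, with Sox6 (log2 7.19) far from the other repressors.

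Between the Plek2 labels no member passed the edgeR test in erythroblasts. Of 5 tested, 0 were called (of all 12241 genes tested 2.84% were, 0.18% higher and 2.66% lower), 1 had an unadjusted p below 0.05 (Myb), DESeq2 called 1 (Beta-s) and limma-voom 0. Beta-s took 6.00% and 6.13% of counts under the Plek2+/+ label and 5.23% and 4.58% under the Plek2-/- label. Both libraries labelled Plek2-/- lie below both labelled Plek2+/+, at 4.90% ± 0.453 against 6.07% ± 0.0924 (SD, n = 2 each; two-sided exact permutation p = 0.333, the smallest that 2 against 2 can give). In the fit over all genes the log2 fold change of Beta-s was -0.31 (SE 0.19, 95% confidence interval -0.72 to 0.10, edgeR adjusted p = 0.489), and DESeq2 gave -0.31 with an adjusted p of 0.0453. The sum of the 11 erythroid markers did not separate by label (41603 and 45300 CPM against 42385 and 44352 CPM), and 0 of the 11 were called. Slc4a1 and Tfrc weigh most in that sum, and single markers differed in direction. Among them Alas2 (7661 and 8214 against 7353 and 6874 CPM) and Tspo2 (295 and 313 against 264 and 289 CPM) lay lower under the Plek2-/- label without overlap. Rhag (945 and 1061 against 1065 and 1118 CPM) lay higher.

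The embryonic chains rest on few reads, and whether their label effect differs from that of Beta-s was not tested. Hbb-y stood at 1.42 ± 0.195 CPM under the Plek2+/+ label and 1.45 ± 0.165 CPM under the Plek2-/- label (SD, n = 2 each; log2 0.04, 95% confidence interval -0.74 to 0.83, edgeR adjusted p = 0.975). Hbb-bh1 stood at 0.55 ± 0.086 and 0.95 ± 0.094 CPM (SD, n = 2 each; log2 0.79, 95% confidence interval -0.25 to 1.83, edgeR adjusted p = 0.491). The libraries do not overlap for Hbb-bh1 but rest on between 8 and 13 reads. The embryonic share of beta-like reads was 24.5 ± 2.33 per 1000000 under the Plek2+/+ label and 37.4 ± 4.40 under the Plek2-/- label (SD, n = 2 each; two-sided exact permutation p = 0.333). The exact binomial intervals of single libraries overlap, from 15.3 to 36.9 over the Plek2+/+ pair and from 23.1 to 56.0 over the Plek2-/- pair.

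**Figure D3:**
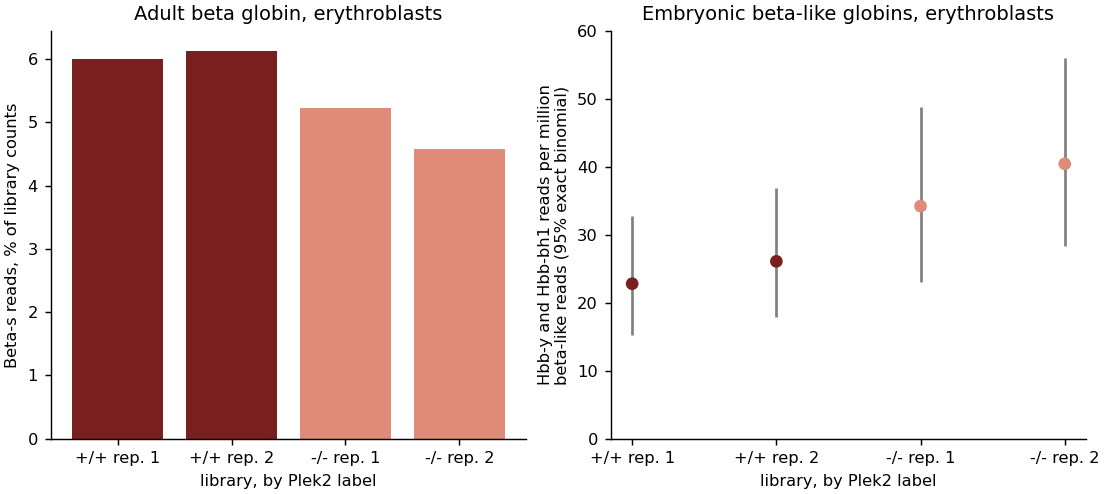
Left, Beta-s reads as a percent of all counts in each erythroblast library; right, Hbb-y and Hbb-bh1 reads per 1000000 beta-like reads, with 95% exact binomial intervals. The bars fall from 6.00% and 6.13% to 5.23% and 4.58% by label, and the points lie between 22.8 and 40.5 per 1000000 with overlapping intervals.

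In progenitors the Beta-s values pointed up with the Plek2-/- label, mainly through 1 library. They were 50.4 and 45.6 CPM under the Plek2+/+ label and 55.1 and 126.8 CPM under the Plek2-/- label. The groups do not overlap, but Plek2-/- replicate 1 lies close to the Plek2+/+ pair and replicate 2 far above it. The log2 fold change was 0.97 (SE 0.31, 95% confidence interval 0.25 to 1.69, edgeR adjusted p = 0.153). Without Plek2-/- replicate 2 it was 0.25 (edgeR adjusted p = 0.0307) and without replicate 1 it was 1.45 (edgeR adjusted p = 7.86e-13); with a lone library in an arm, that library is assumed to vary like the other group. Of 3 members tested 0 were called (of all 13168 genes tested 4.91% were, 4.5% higher and 0.402% lower), 1 had an unadjusted p below 0.05, and DESeq2 and limma-voom called 0. Beta-s was called with the replicate number as a block (log2 0.86, edgeR adjusted p = 0.0162) and without the filter on low counts (log2 0.97, edgeR adjusted p = 1.04e-13). The fit without the filter took in 16993 genes instead of 13168, but the Beta-s counts and fold change were those of the filtered fit. The difference still lies mainly in Plek2-/- replicate 2, so the smaller p adds no support.

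The same library was high for some red cell genes and not for others. Slc4a1, the anion exchanger of the red cell membrane, stood at 15.7, 12.3, 14.4 and 37.8 CPM in Plek2+/+ replicates 1 and 2 and Plek2-/- replicates 1 and 2. Alas2, the first enzyme of erythroid heme synthesis, stood at 7.09, 5.63, 7.05 and 14.7 CPM in the same order. Their ratios of Plek2-/- replicate 2 to replicate 1 were 2.63 and 2.08, beside 2.30 for Beta-s. Epb4.2, a membrane skeleton gene, followed at 1.58. In contrast 7 of the 11 erythroid markers had ratios between 0.9 and 1.2, among them Gata1 at 0.964, Klf1 at 0.988 and the transferrin receptor gene Tfrc at 1.03. Summed, the 11 markers stood at 1100, 1030, 1035 and 1106 CPM, but Tfrc made up most of each sum (864, 796, 798 and 821 CPM). Of the 11 markers, 7 were highest of the 4 progenitor libraries in Plek2-/- replicate 2. The neutrophil sum was also highest in that library (23986 CPM), and the part of either in the Beta-s value was not tested.

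**Figure D4:**
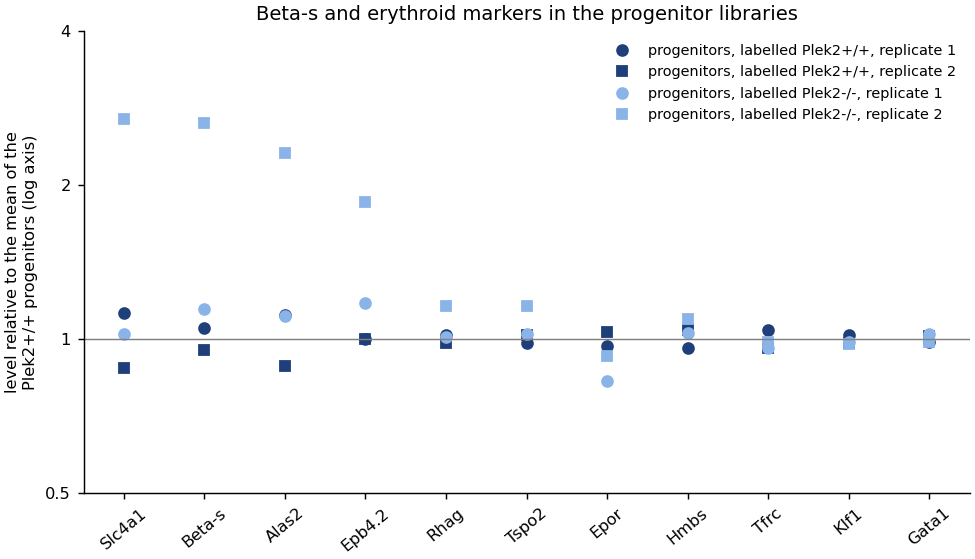
Beta-s and 10 of the erythroid markers in the 4 progenitor libraries, each relative to the mean of the libraries labelled Plek2+/+ (log axis), ordered by the ratio of Plek2-/- replicate 2 to replicate 1. Slc4a1, Beta-s, Alas2 and Epb4.2 are high in Plek2-/- replicate 2, and Tfrc, Klf1 and Gata1 lie close to their Plek2+/+ mean in both Plek2-/- libraries.

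Neither Myb nor Bcl11a was called between the labels with the settings of the report. Myb stood at 145 ± 7.03 against 117 ± 15.1 CPM in erythroblasts (SD, n = 2 each; log2 -0.30, 95% confidence interval -0.52 to -0.08, edgeR adjusted p = 0.157), and both libraries labelled Plek2-/- lay below both labelled Plek2+/+. It was called without Plek2-/- replicate 1 (log2 -0.44, edgeR adjusted p = 0.0106). In progenitors Myb stood at 539 ± 11.95 against 476 ± 2.53 CPM (SD, n = 2 each; log2 -0.14, 95% confidence interval -0.29 to 0.01, edgeR adjusted p = 0.335). There too the libraries labelled Plek2-/- (474 and 478 CPM) lay below those labelled Plek2+/+ (530 and 547 CPM). Bcl11a stood at 45.0 ± 7.91 against 50.1 ± 0.548 CPM in erythroblasts (SD, n = 2 each; log2 0.16, 95% confidence interval -0.10 to 0.43, edgeR adjusted p = 0.599) and 66.9 ± 2.59 against 69.0 ± 9.05 CPM in progenitors (SD, n = 2 each; log2 0.09, 95% confidence interval -0.13 to 0.31, edgeR adjusted p = 0.710), with overlapping libraries in both. Without Plek2-/- replicate 1 the progenitor difference of Bcl11a was called (log2 0.21, edgeR adjusted p = 0.0148), and without replicate 2 it was -0.05 (edgeR adjusted p = 0.704).

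The test of whether the label effect differs between the populations called 0 of 5 members (of all 13365 genes 5.55% were called, 0.232% higher and 5.32% lower), with 1 at an unadjusted p below 0.05 and 0 by DESeq2 and limma-voom. Hbb-y and Hbb-bh1 are among the 5 but had no progenitor reads to compare. The 1 was Beta-s, whose effect in erythroblasts minus that in progenitors was -1.24 on the log2 scale (SE 0.40, 95% confidence interval -2.12 to -0.37, edgeR adjusted p = 0.106). Without progenitor Plek2-/- replicate 2 it was -0.52 (edgeR adjusted p = 0.201) and without replicate 1 it was -1.72 (edgeR adjusted p = 0.000179). The values of Bcl11a (0.10, edgeR adjusted p = 0.794) and Myb (-0.13, edgeR adjusted p = 0.642) did not pass either. The population and label comparisons use the same libraries, so they are not independent of each other.

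**Figure D5:**
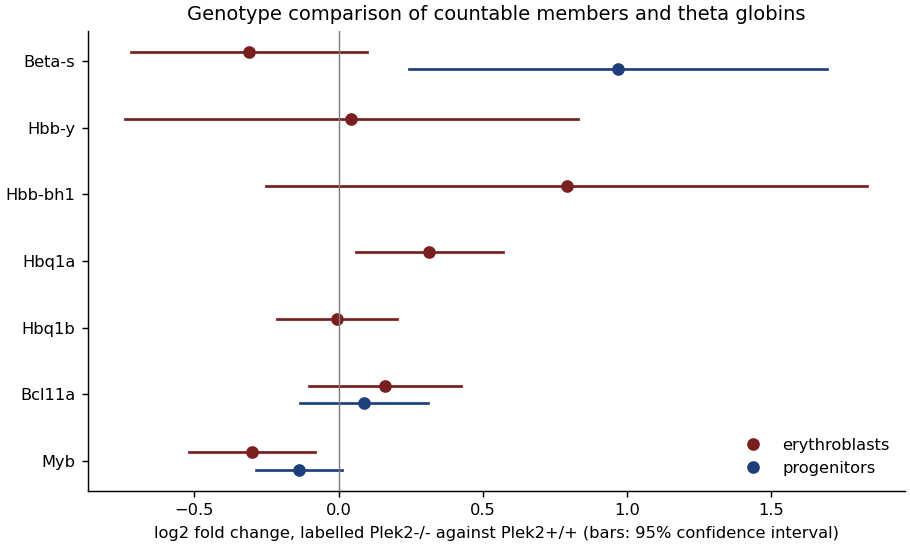
Log2 fold change between the labels (Plek2-/- against Plek2+/+) with 95% confidence intervals, in erythroblasts and, where the gene was countable, in progenitors. Beta-s points down in erythroblasts (-0.31) and up in progenitors (0.97), Myb lies below 0 in both, and none of the differences passed the adjusted test.

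Among 126 listed genes tested in erythroblasts, 5 were called lower with the Plek2-/- label and 0 higher, beside 2.66% lower and 0.18% higher of all genes tested, so the share is near that of all genes. Arid3a, a DNA-binding protein of B cells and fetal red cell development, fell 1.53-fold from 86.8 and 90.5 CPM to 61.3 and 54.1 CPM (edgeR adjusted p = 0.00950), and Lin28a 1.67-fold from 24.9 and 23.6 to 16.7 and 12.2 CPM (edgeR adjusted p = 0.0275). Of the 21 MYB partners and targets 3 fell: the myeloid and B cell factor gene Sfpi1 (Spi1) 1.52-fold (edgeR adjusted p = 0.0176), the neutrophil enzyme gene Mpo 1.37-fold (edgeR adjusted p = 0.0236) and Ets1, named after its values were seen, 1.53-fold (edgeR adjusted p = 0.0283), and the list median was -0.12 (all genes 0.01). Without Plek2+/+ replicate 1 or 2, Arid3a (edgeR adjusted p = 0.0821 and 0.0954), Lin28a (0.192 and 0.112), Sfpi1 (0.124 and 0.136) and Mpo (0.128 and 0.152) were not called, and without Plek2-/- replicate 2 neither were Lin28a (0.143), Sfpi1 (0.0611) and Mpo (0.0553). The other 8 of 10 lists had 0 edgeR calls among 105 genes, 9 at an unadjusted p below 0.05 and 0 by DESeq2 or limma-voom. In the same libraries the neutrophil sums were lower (6 of 9 markers called), as were 10 B cell markers, from 160 and 131 CPM to 99.5 and 67.9 CPM (4 of 10 called). The 9 eosinophil and mast cell markers were lower too, from 2179 and 2605 CPM to 1384 and 923 CPM (5 of 9 called, median log2 -1.01 against -0.57 for neutrophil and -0.81 for B cell markers). The part of any of these in the listed genes was not tested.

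In progenitors 2 of 130 listed genes were called higher and 3 lower with the Plek2-/- label, while 4.91% of all genes were called. Lin28a rose 2.59-fold from 11.6 and 10.5 CPM to 24.7 and 30.9 CPM (edgeR adjusted p = 0.00190), and Arid3a 1.27-fold (edgeR adjusted p = 0.0248), which without Plek2+/+ replicate 1 or 2 was not called (edgeR adjusted p = 0.259 and 0.381). Cebpa, a factor of granulocyte progenitors, fell 1.27-fold (edgeR adjusted p = 0.0252). Sh3pxd2b, of the alpha cluster list, fell 1.51-fold (edgeR adjusted p = 0.0344), and the X-linked translation factor gene Eif2s3x 1.63-fold (edgeR adjusted p = 0.0437). Without Plek2+/+ replicate 2 none of these 3 was called (edgeR adjusted p = 0.334, 0.333 and 0.390). The other 6 lists had 0 edgeR calls among 82 genes, 10 at an unadjusted p below 0.05 and 0 by DESeq2 or limma-voom. Here 9 of 9 neutrophil markers were called higher, and the sex difference runs along the label.

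The promoters of the adult gene and the embryonic gene of the beta cluster are shown because both were read in erythroblasts but at very different levels. Each is the 150 bases before the RefSeq start (GRCm38.p6, minus strand), at chr7:103827929-103828078 for Hbb-bs and chr7:103853208-103853357 for Hbb-y, with motif matches in capitals.
Hbb-bs: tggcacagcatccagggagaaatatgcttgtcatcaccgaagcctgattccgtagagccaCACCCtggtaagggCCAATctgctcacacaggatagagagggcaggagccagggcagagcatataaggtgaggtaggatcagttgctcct
Hbb-y: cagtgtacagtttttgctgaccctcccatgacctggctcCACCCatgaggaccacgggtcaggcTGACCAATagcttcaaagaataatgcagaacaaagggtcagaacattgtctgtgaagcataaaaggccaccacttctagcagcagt
The search covered both strands for the CCAAT box, for CACCC of the KLF1 type, for the TATA box as TATAAA, for the GATA type as AGATAA, for the BCL11A type as TGACCA and for the NF-E2 type as TGAGTCA. Both promoters hold CACCC, 90 and 111 bases before the start, and CCAAT, 76 and 83 bases before it. In Hbb-y the CCAAT overlaps a TGACCA that begins 86 bases before the start, and Hbb-bs has no TGACCA in 250 bases. Hbb-bs holds an AGATAA 210 bases before the start, outside the stretch shown, and Hbb-y has none in 250 bases. Neither holds TATAAA or TGAGTCA. In Hba-x the TGACCA lies 40 bases before the start. Of all 32851 RefSeq promoters of 250 bases, 52.0% hold CACCC, 33.8% CCAAT, 11.4% TGACCA and 9.99% AGATAA, so single matches are common. A promoter entry was found for 7 of the 10 members.

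The genes whose levels ran most like a member over the 8 libraries are given as a description, since the libraries fall into 2 populations that fix most of the correlation and share their scaling. For Beta-s these were Alas2 (Pearson r = 0.9998), Trim10, Fn3k, Ypel5 and Slc4a1 (0.9993). For Myb they were Nfkb1 (0.9995), Parp8, Pfkp, Dock10 and Ehmt2 (0.9989), and for Bcl11a St8sia6 (0.983), Kcnj5, Sf1, Apol7e and Fbxl22 (0.9759). Centred on each population, Xpo6 (0.989), Lhfp (0.9712) and the NuRD gene Gatad2b (0.9666) ran most like Bcl11a, and Maged2 (0.9904) and Nfkb1 (0.9871) most like Myb.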

How the data were processed

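Total RNA was sequenced. The submitters' processing notes name build mm10, STAR 2.5.2a, cutadapt 1.13, DESeq2 1.14.1 and HTSeq 0.6.1pl, without their roles. The authors deposited raw counts per gene symbol and a second table of normalized signal, which the authors made by dividing counts by 1 size factor per library and which was used only to read those factors. Counts were tested with edgeR 4.0.16 in R 4.3.3 (TMM, filterByExpr, quasi-likelihood fits, Benjamini-Hochberg adjustment over all genes, called at an adjusted p below 0.05): label effects within each population, population contrasts and the interaction in 1 fit of 8 libraries. DESeq2 1.42.0 and limma 3.58.1 (voom) stand beside it. On simulated data the test recovered shifted genes. Only genes above a minimum mean count were shifted, and no library was made to stand apart. The simulation thus does not cover genes with as few reads as Hbb-bh1 or the divergent progenitor library. Replicates differed by more than counting noise (chi-square per degree of freedom 5.65 to 15.7). Positions and coding sequences are from GENCODE vM21, and promoters from RefSeq. From each list the text names up to 2 genes, those called with the smallest adjusted p, or its most abundant tested member if none was called. Members and lists were chosen with earlier results of these data known. The values of 1 marker gene are not reported here.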

Additional observations from a re-analysis of the deposited data

Results flagged for a closer look

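For 5 of 131 listed genes tested, beside 5.55% of all genes, the label effect differed between the populations (interaction term, edgeR), as erythroblasts minus progenitors on the log2 scale. For Lin28a the difference was -2.08 (SE 0.22, edgeR adjusted p = 0.000272), the result of a fall in erythroblasts and a rise in progenitors. Arid3a followed with -0.92 (SE 0.12, edgeR adjusted p = 0.000539), again with opposite called effects. Sfpi1, the gene of the myeloid and B cell factor PU.1, had -0.83 (SE 0.14, edgeR adjusted p = 0.00264). Ets1 had -0.95 (SE 0.19, edgeR adjusted p = 0.00909). Gfi1, a repressor of granulocyte and stem cells, had -0.63 (SE 0.15, edgeR adjusted p = 0.0210) and was not called without erythroblast Plek2+/+ replicate 2 (adjusted p = 0.0662) or without progenitor Plek2+/+ replicate 1 (0.109) or 2 (0.0847) or Plek2-/- replicate 2 (0.0605). The 9 neutrophil markers moved the same way (9 of 9 called lower in the interaction), as did the 10 B cell markers (3 of 10 called lower, 10 at an unadjusted p below 0.05, median -1.04); their part in these values was not tested. With 2 libraries a group, no sample could be tested as an outlier.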

How the results depend on the processing

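With 2 libraries a group, sex in step with the label and shared reads between globin copies unresolved, small label differences of the members are not measurable here; leave-one-out fits assume that a lone library varies like the other group. Members called in erythroblasts between the labels were 0, and 1 with DESeq2 (Beta-s); leaving out 1 library gave 0 to 1. In progenitors they were 0, but 1 without the low-count filter, 1 with the replicate block (Beta-s, log2 0.86, edgeR adjusted p = 0.0162) and 0 to 2 with 1 library left out. For the interaction they were 0, but 1 without the filter and 0 to 1 with 1 library left out. Either population contrast called 5 members. The fit of 4 libraries called 4 (Plek2+/+) and 5 (Plek2-/-), since Hbb-bh1 did not pass its low-count filter under the Plek2+/+ label. These counts include Hbb-y and Hbb-bh1, which passed the filter only through the erythroblasts, so their calls support nothing. Beta-s, Bcl11a and Myb were called under either label in the fit of 4 libraries too. Replicate numbers mark no stated pairing, and correlations of same-numbered deviations were 0.034, -0.076, 0.046 and 0.102; the block left the other 4 comparisons at 0 or 5 member calls and moved the calls of all genes from 348 to 579 in erythroblasts and from 646 to 813 in progenitors. Without 1 library those counts ran from 25 to 995 and from 239 to 2649, and without the filter they were 845 and 1315. Of the progenitor label calls 91.8% were higher, but 79.8% on library totals, 64.9% of 2649 without Plek2-/- replicate 1 and 59.3% of 1739 without replicate 2. The Beta-s share difference in erythroblasts, -1.16 percentage points, was -1.60 on TMM-scaled totals, and the log2 ratio of Beta-s to Myb, 12.66 per kilobase, was 9.12 without length; coding lengths were not used here.

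Values that turned sign were uncalled with the settings of the report. In erythroblasts Prdx2 (-0.00078) was 0.0028 on library totals, 0.0026 with limma-voom and 0.0031 with the replicate block. In progenitors Chd4 (0.0048) was -0.054 on library totals, -0.032 with the authors' size factors and -0.037 with 8 libraries in the fit. With 1 library left out, label effects in erythroblasts ran from -0.10 to 0.091 for Prdx2, -0.092 to 0.16 for Hbb-y, -0.026 to 0.36 for Bcl11a, -0.092 to 0.066 for Hbq1b, -0.099 to 0.13 for Tal1, -0.10 to 0.18 for Ppp1r15a and -0.0069 to 0.083 for Nprl3. Those in progenitors ran from -0.050 to 0.21 for Bcl11a, -0.0031 to 0.014 for Chd4, -0.27 to 0.19 for Ep300 and -0.046 to 0.027 for Hbs1l, and the interaction of Bcl11a from -0.099 to 0.25. The causes were not tested.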

Other observations

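The globins outside the 2 hemoglobin clusters stayed at trace levels. Ngb, the neuroglobin gene, had between 8 and 12 reads in each progenitor library and between 0 and 3 in each erythroblast library. Cygb (cytoglobin) had at most 3 reads and Mb (myoglobin) at most 2 in any library. Hbb-bh2, a beta-like gene of the cluster, had 4 reads over the erythroblasts labelled Plek2+/+, 6 over those labelled Plek2-/- and 0 in progenitors.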
